A study of Mus musculus with 13 samples.

Results

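Batf, Batf3, Irf4, Maf and the Fos and Jun genes encode transcription factors that act downstream of the T cell antigen receptor. A set of 10 such genes (Batf, Batf3, Irf4, Maf, Fos, Fosb, Fosl2, Jun, Junb and Jund) was taken by gene symbol from a table of 18649 genes. For 9 of the 10 a row was found and all 9 passed the minimum level for testing; levels of Batf3 are not analysed here. Levels were compared between sorted CD4 T cell populations of the mouse spleen, within and across experiments.

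The 13 RNA libraries came from 3 populations, each sorted from spleen in experiments numbered 3, 5 and 6. PD1hi cells were CD4+, negative for Foxp3 and high for the inhibitory receptor PD-1 (3 libraries). Treg were CD4+ cells positive for the GFP that reports Foxp3, the regulatory T cell factor, and negative for PD-1 (5 libraries). Tconv, conventional CD4+ T cells, lacked both Foxp3 and PD-1 (5 libraries). The labels read Foxp3 by GFP and give no strain, age, sex or treatment of the mice. RNA was depleted of ribosomal RNA and sequenced on the Ion Torrent platform. In 4 cases an experiment and population had a second library, and these were averaged, which left 3 values per population and 9 in all. Whether libraries came from separate animals is not stated in the labels. The p-values therefore reflect the scatter of these libraries alone, and part of it may be technical.

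AP-1 is a dimer of basic leucine zipper proteins, usually a Jun protein (Jun, Junb, Jund) with a Fos protein (Fos, Fosb, Fosl2) or with Batf. Several Fos and Jun genes are immediate early genes, which means that their transcripts rise briefly after receptor stimulation or cell stress and then decay. Batf pairs with Jun proteins and binds together with Irf4 at composite DNA elements, while Maf, a larger bZIP factor, is known in T cells for driving Il10, Il21 and Il4.

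Values are scaled counts, that is, reads per gene adjusted by the authors to a common library scale. Fold changes are on the scale of log2(scaled count + 1) and are given ± standard error, and adjusted p-values are Benjamini-Hochberg values from limma over 14177 genes. Libraries held 15971126 to 24216463 reads in genes, and the 9 genes had between 95 reads (Fosl2) and 22416 reads (Fos) per library. Pdcd1, which encodes PD-1, stood at 37372 ± 3290.1 scaled counts (SD, n = 3) in PD1hi, 1955 ± 38.5 in Treg and 1132 ± 136 in Tconv, and Foxp3 at 106 ± 33.4, 15889 ± 513 and 291 ± 35.8. Cd4 was 40736 ± 5837, 17161 ± 1945 and 28067 ± 1638. The second Treg library of experiment 3 stood apart from its partner (chi-square per degree of freedom 73.5, against 7.77 to 9.05 for the other 3 pairs), and the PD1hi value of experiment 6 did not deviate with the Treg and Tconv values of its experiment (correlations of deviations over genes -0.07 and 0.02). With both left out, Batf and Maf kept their calls in all 3 comparisons and Irf4 in the 2 against Tconv. Compared within experiments, Irf4 was then called between PD1hi and Treg as well (0.46, adjusted p = 0.0156). With libraries set to equal totals the median log2 difference of all genes between PD1hi and Tconv moved from 0.00 to 0.14, and the share of called genes that were higher from 54.4% to 65.4%.

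Batf and Maf separated all 3 populations, and Irf4 separated Tconv from the others. Batf, the AP-1 partner of Jun in lymphocytes (ENSMUSG00000034266, chromosome 12), was measured at 3310.4, 2692 and 3917 scaled counts in PD1hi cells of experiments 3, 5 and 6. The Treg values were 1919, 1669 and 1622, and the Tconv values 858, 1057 and 875. In each experiment PD1hi was highest and Tconv lowest, and no value of one population reached into another. The difference between PD1hi and Tconv was 1.82 ± 0.16 (adjusted p = 7.4e-06), a 3.53-fold higher level. Batf was also 1.89-fold higher in PD1hi than in Treg (0.92 ± 0.16, adjusted p = 0.00181) and 1.87-fold higher in Treg than in Tconv (0.90 ± 0.16, adjusted p = 0.00245). The second Treg library of experiment 3 held 2222 scaled counts of Batf, against 1586 to 1669 in the other 4 Treg libraries.

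Maf (ENSMUSG00000055435, chromosome 8) followed the same order with wider steps. It was measured at 11039, 8838 and 12974 scaled counts in PD1hi, 5859, 5718 and 5414 in Treg and 1753, 2197 and 1671 in Tconv of experiments 3, 5 and 6. The 3 populations again did not overlap, and the lowest PD1hi value lay above the highest Treg value. PD1hi exceeded Tconv by 2.54 ± 0.16 on the log2 scale (5.81-fold, adjusted p = 6.0e-07) and Treg by 0.93 ± 0.16 (1.91-fold, adjusted p = 0.00138). Treg exceeded Tconv by 1.60 ± 0.16 (3.04-fold, adjusted p = 3.1e-05). In the GENCODE M21 annotation a gene named Gm15655 overlaps Maf on the opposite strand, and the sources used here do not say whether counting used strand, so reads of the pair cannot be told apart. Gm15655 was listed at 325 ± 73.6, 217 ± 11.9 and 50.8 ± 20.9 scaled counts in PD1hi, Treg and Tconv.

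Irf4, the interferon regulatory factor that binds DNA jointly with Batf and Jun (ENSMUSG00000021356, chromosome 13), was higher in PD1hi and in Treg than in Tconv, and no difference between PD1hi and Treg passed the test. Its values were 1918, 1770.2 and 1278 in PD1hi, 1323, 1253 and 1438 in Treg and 371, 372 and 462 in Tconv. All PD1hi and Treg values lay above all Tconv values, whereas PD1hi and Treg overlapped. Irf4 was 4.07-fold higher in PD1hi than in Tconv (2.03 ± 0.18, adjusted p = 6.3e-06) and 3.34-fold higher in Treg than in Tconv (1.74 ± 0.18, adjusted p = 3.7e-05). The difference between PD1hi and Treg was 0.29 ± 0.18, with a 95% interval of -0.10 to 0.67 and an adjusted p of 0.33. PD1hi was the higher of the pair in experiments 3 and 5 and the lower in experiment 6, with within-experiment differences of 0.54, 0.50 and -0.17. Compared within experiments, the call depended on 1 PD1hi library: without that of experiment 6 the difference was 0.54 (adjusted p = 0.00479), and with it the adjusted p was 0.335.

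**Figure D1:**
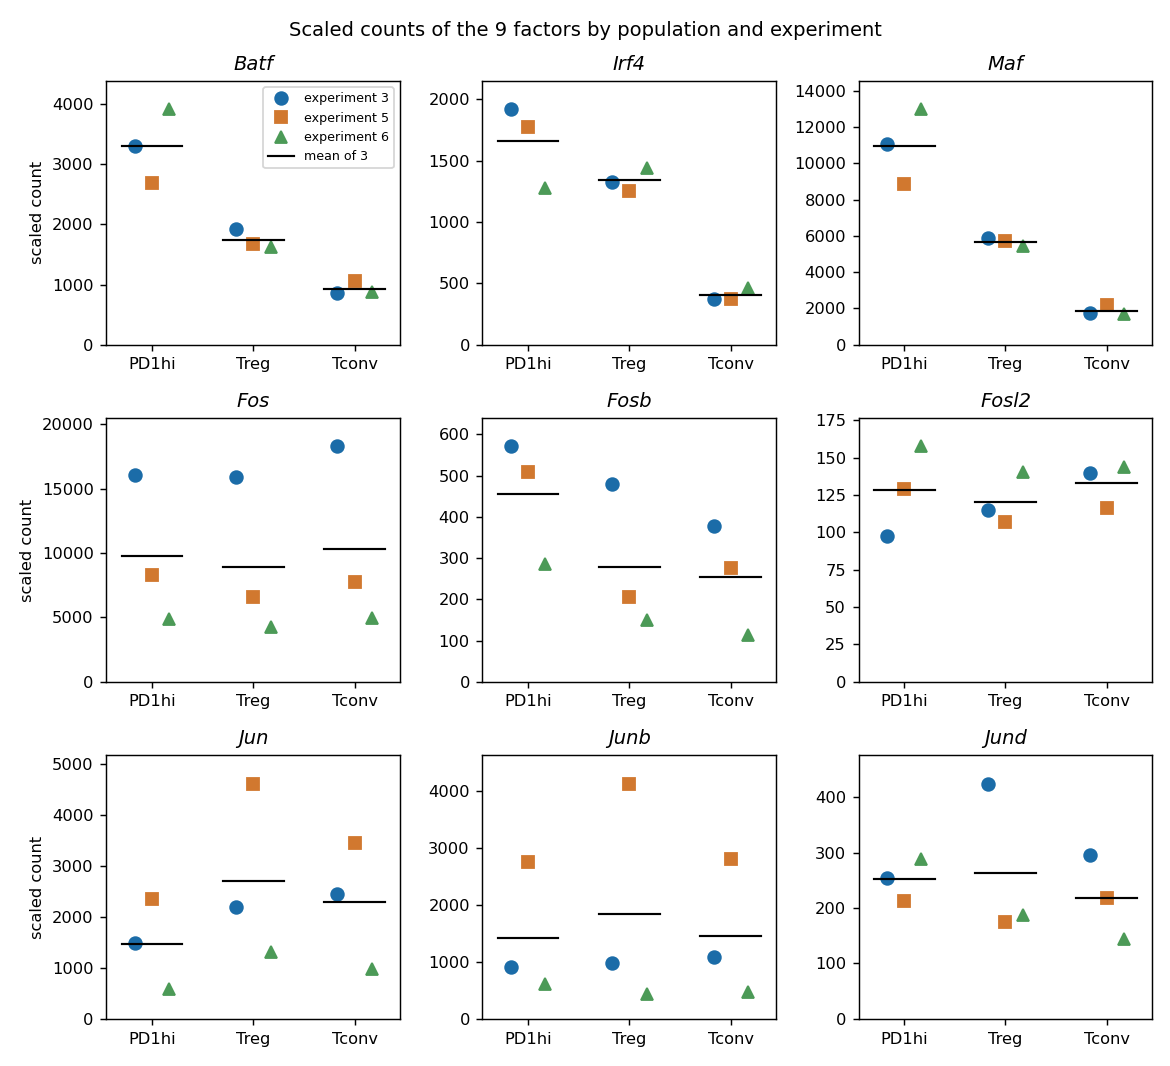
Scaled counts (vertical axes, from 0) of the 9 factors in PD1hi, Treg and Tconv (horizontal axes). Each symbol is 1 value from experiment 3 (circle), 5 (square) or 6 (triangle) and each line is the mean of 3. Batf and Maf step down from PD1hi to Treg to Tconv, Irf4 is low in Tconv alone, and the Fos panel is layered by experiment in every population.

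Batf and Maf also deviated together within populations. Over the 9 values their log2 levels correlated at 0.99, and at 0.95 after the mean of each population was subtracted. Irf4 correlated with Batf at 0.86 and with Maf at 0.92 over all values, but at -0.59 and -0.67 in the deviations. In PD1hi cells of experiment 6 Batf and Maf had their highest values and Irf4 its lowest PD1hi value. These correlations are descriptions over 9 values that share libraries and 3 population means.

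In bulk RNA a larger share of expressing cells and more RNA per cell cannot be told apart, and markers of other cell types differed between the populations too. The summed plasma cell list (Sdc1, Igj, Tnfrsf17 and Derl3, of which 3 had a mean of at least 10) ranged over 2423 to 5089 scaled counts in PD1hi, 2894 to 5644 in Treg and 1284 to 2096 in Tconv. The 8 B cell markers, 4 of them with a mean of at least 10, summed to 1678 to 2282, 888 to 1142 and 221 to 407, and the 13 myeloid and dendritic markers to 4939 to 5919.6, 8135 to 11349.6 and 2490.1 to 6661. No marker in these 3 lists was at 0 in every library. Sdc1, the plasma cell syndecan, averaged 49.1, 32.4 and 17.8 scaled counts in PD1hi, Treg and Tconv. Igj, the antibody joining chain, made up most of the plasma cell sum, with means of 3866, 4316 and 1586. Csf1r, a macrophage growth factor receptor, averaged 281, 207 and 191, whereas the sum of its list was highest in Treg. Sdc1, Igj and Csf1r were singled out after their values were seen. Of the 12 myeloid and dendritic markers tested, 1 was higher and 2 lower in PD1hi than in Treg (all genes: 8.16% and 8.39%). Against Tconv 2 were higher and 1 lower in PD1hi (all genes: 14.2% and 11.9%). Among the 4 tested B cell markers 1 was higher and 1 lower in PD1hi than in Treg (median log2 difference -0.24). Against Tconv the B cell counts were 2 and none. For the 3 tested plasma cell markers they were none and none against Treg, and 1 and none against Tconv. For the 5 tested CD8 T and NK markers they were 1 and 1 against Treg, and none and 2 against Tconv. The shares of all genes are as for the myeloid list. CD8 T and NK markers (6) summed to 561 to 744, 360.2 to 589 and 1917 to 2025 and erythroid and platelet markers (5) to 38.4 to 69.6, 40.0 to 59.2 and 13.2 to 42.6. The 8 CD4 T cell markers summed to 186999 to 199759.9 in PD1hi, 130937 to 142239 in Treg and 175118 to 187327 in Tconv. Irf4 is made by plasma cells, and Irf4 and Maf by some myeloid cells; the part of such cells in the levels above was not tested.

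Counted over the 9 genes, 3 passed the test as higher in PD1hi than in Tconv and none as lower, where 14.2% of all genes tested were higher and 11.9% lower. Between PD1hi and Treg 2 were higher and none lower (all genes: 8.16% and 8.39%). Between Treg and Tconv 3 were higher and none lower (all genes: 8.73% and 5.66%). No gene of the set was lower at an unadjusted p under 0.05 in limma in any of the 3. The comparisons share their samples. When experiment entered the fit as a block, so that populations were compared within experiments, 4 genes were higher and 1 lower in PD1hi than in Tconv (all genes: 15.3% and 12.8%), and 3 higher and 1 lower than in Treg (all genes: 9.04% and 9.15%). Between Treg and Tconv the count remained 3 and none (all genes: 9.45% and 6.09%). The genes added were Fosb and Jun.

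The promoters of Fos, Fosb, Junb and Jun are shown because these 4 genes of the set had their lowest level in experiment 6 in every population. They were read from RefSeq (GRCm38.p6), where 9 of the 10 genes had an entry (Batf3 included, Maf not). The bases run from 120 to 11 bases before the annotated start, on the strand of the gene. Capitals mark TGACG, the core of the cyclic AMP response element, or TGACATCA, known from the Jun promoter as a site of Jun and Atf2.
Fos, chr12:85473770-85473879, plus strand: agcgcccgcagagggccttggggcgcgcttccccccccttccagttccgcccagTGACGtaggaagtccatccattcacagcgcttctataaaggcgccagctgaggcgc
Fosb, chr7:19310056-19310165, minus strand: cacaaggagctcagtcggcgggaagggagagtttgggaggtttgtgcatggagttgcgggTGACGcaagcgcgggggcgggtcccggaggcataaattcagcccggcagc
Junb, chr8:84978759-84978868, minus strand: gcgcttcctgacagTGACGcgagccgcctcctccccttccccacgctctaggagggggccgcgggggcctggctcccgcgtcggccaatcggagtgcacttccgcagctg
Jun, chr4:95052233-95052342, minus strand: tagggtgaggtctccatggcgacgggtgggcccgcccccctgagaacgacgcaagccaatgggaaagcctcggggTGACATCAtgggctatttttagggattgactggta
The match began 66 bases before the start in Fos, 60 in Fosb, 106 in Junb and 45 in Jun, and Fos held another TGACG 129 bases before its start. Searched on both strands over 250 bases before the start, TGACG occurred in 4 of these 9 promoters (Fos, Fosb, Junb and Batf) and in 17.8% of 32851 promoters, and TGACATCA in Jun alone of the 9 and in 2.93% of promoters. The AP-1 site TGACTCA (4.46% of promoters) and the full element TGACGTCA (1.55%), which contains TGACG, were in none of these 9 promoters. A Batf and Irf4 composite, sought as GAAA or TTTC with at most 4 bases between it and TGACTCA or TGAGTCA, was in none of these 9 and in 0.542% of promoters. These are letter matches and not measured binding.

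Fos, the immediate early partner of Jun (ENSMUSG00000021250, chromosome 12), followed the experiment, and no difference between populations passed the test. In experiment 3 it stood at 16030.2 scaled counts in PD1hi, 15928 in Treg and 18284 in Tconv. In experiment 5 the values were 8332, 6624 and 7785, and in experiment 6 4865, 4288 and 4964. The 3 experiments did not overlap, while the 3 populations overlapped almost fully. PD1hi and Tconv differed by -0.040 ± 0.55 across experiments (adjusted p = 0.97) and by -0.040 ± 0.11 within them, where the 95% interval was -0.29 to 0.20. Within experiments PD1hi and Treg differed by 0.17 ± 0.11 (interval -0.071 to 0.42, adjusted p = 0.323), and Treg and Tconv by -0.21 ± 0.11 (interval -0.46 to 0.030, adjusted p = 0.242), with Treg the lower in 3 of 3 experiments.

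Fosb, a Fos relative that is also an immediate early gene (ENSMUSG00000003545, chromosome 7), combined both patterns. It was measured at 571, 509 and 286 scaled counts in PD1hi of experiments 3, 5 and 6, 479, 206 and 149.6 in Treg and 377, 275 and 114 in Tconv. PD1hi was highest in every experiment, but the spread between experiments made the populations overlap. Across experiments the difference from Tconv was 0.93 ± 0.48 (adjusted p = 0.186) and that from Treg 0.83 ± 0.48 (adjusted p = 0.304). Within experiments the same differences had smaller errors, 0.93 ± 0.23 from Tconv (adjusted p = 0.0164) and 0.83 ± 0.23 from Treg (adjusted p = 0.0395), and both passed the test. Single values decided these calls. The adjusted p against Tconv became 0.0739, 0.067 and 0.0924 without PD1hi of experiment 5, Tconv of experiment 3 and Tconv of experiment 6. Against Treg it lay between 0.055 and 0.195 without PD1hi of experiment 5, Treg of 5 or 6, or Tconv of 3 or 5.

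Fosl2, a Fos relative that is no classical immediate early gene (ENSMUSG00000029135, chromosome 5), was low, and none of its differences passed the test. It ranged from 97.4 to 158 scaled counts in PD1hi, 107 to 140.2 in Treg and 117 to 144 in Tconv. The intervals for the 3 differences within experiments were -0.59 to 0.44 (PD1hi minus Tconv), -0.45 to 0.58 (PD1hi minus Treg) and -0.66 to 0.37 (Treg minus Tconv).

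Jun (ENSMUSG00000052684, chromosome 4), the founding AP-1 subunit, was lower in PD1hi than in both other populations of the same experiment. Its values in experiments 3, 5 and 6 were 1487, 2359 and 579 in PD1hi, 2197, 4619 and 1323 in Treg and 2455, 3453 and 989 in Tconv. PD1hi was lowest in each experiment, Treg and Tconv changed places, and over all experiments the populations overlapped. The differences of PD1hi from Tconv within experiments were -0.72, -0.55 and -0.77, and those from Treg -0.56, -0.97 and -1.19. Across experiments they did not pass the test (-0.68 ± 0.57, adjusted p = 0.427, and -0.91 ± 0.57, adjusted p = 0.345). Within experiments Jun was 1.60-fold lower in PD1hi than in Tconv (-0.68 ± 0.15, adjusted p = 0.00861) and 1.88-fold lower than in Treg (-0.91 ± 0.15, adjusted p = 0.00293). The call against Tconv was lost without Tconv of experiment 3 (adjusted p = 0.0662), and that against Treg held without any single value (highest adjusted p = 0.0305). GENCODE M21 places the antisense gene Junos over Jun, and its reads cannot be told apart from those of Jun if strand was not used.

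Junb, the Jun relative that pairs with Batf in helper T cells (ENSMUSG00000052837, chromosome 8), moved with the experiment in all 3 populations. It stood at 914, 2741 and 614 in PD1hi, 975, 4122 and 431 in Treg and 1076, 2794 and 478 in Tconv of experiments 3, 5 and 6. Experiment 5 was highest and experiment 6 lowest in each population. Within experiments PD1hi and Tconv differed by 0.033 ± 0.20 (interval -0.42 to 0.49) and PD1hi and Treg by -0.057 ± 0.20 (interval -0.51 to 0.40). The paired Tconv libraries of experiment 5 themselves differed 2.52-fold in Junb, at 1588 and 4000.4 scaled counts. The gene Prdx2 overlaps Junb on the opposite strand in GENCODE M21 and stood at 2597 ± 29.6, 2255 ± 160.1 and 1949 ± 72.9 scaled counts in PD1hi, Treg and Tconv.

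Jund, the Jun relative that is expressed most evenly across tissues (ENSMUSG00000071076, chromosome 8), was measured at 254, 212 and 288 in PD1hi, 424, 175 and 188 in Treg and 295, 218 and 144 in Tconv. No population or experiment stood apart, and the intervals within experiments ran over -0.41 to 0.91, -0.61 to 0.71 and -0.46 to 0.85 for PD1hi minus Tconv, PD1hi minus Treg and Treg minus Tconv. The Treg value of experiment 3 averaged libraries of 250.9 and 597.9 scaled counts.

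**Figure D2:**
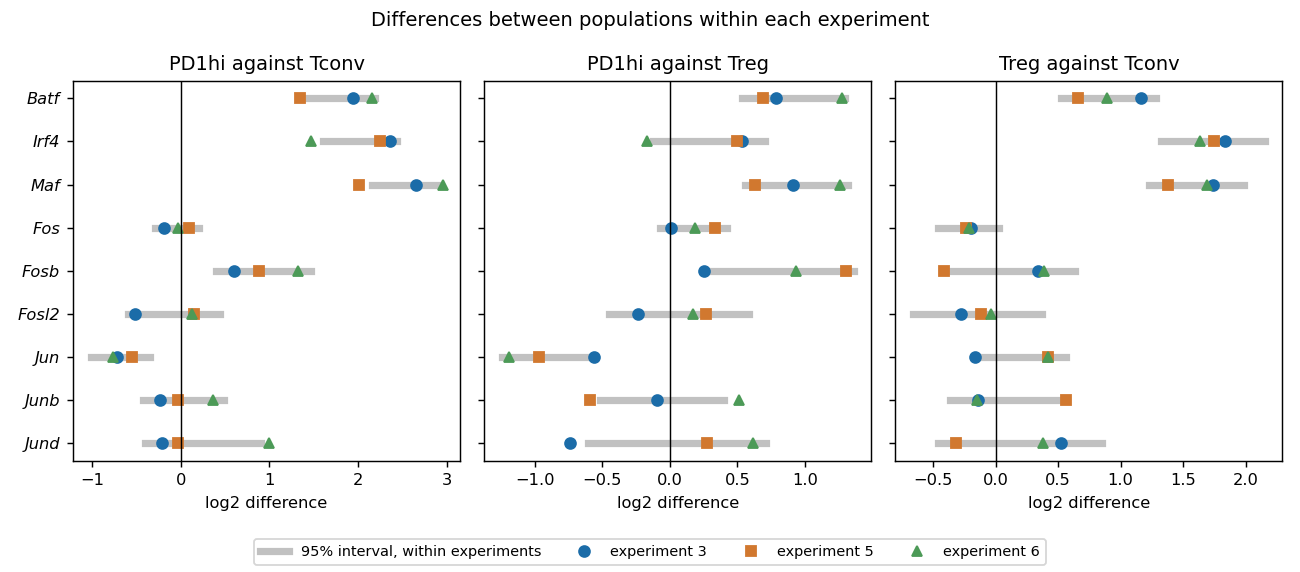
Log2 differences of scaled counts (horizontal axes) for the 9 factors in the 3 comparisons. Symbols are the differences in experiments 3, 5 and 6 and grey bars the 95% intervals of the mean difference in the fit with experiment as a block. PD1hi cells lie above both others for Batf, Maf and Fosb and below both for Jun in all 3 experiments, and the Fos symbols lie between -0.23 and 0.33.

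The split between population and experiment can be given as shares of the variation over the 9 values. Population accounted for 97.5% of the variation of Maf, 96.3% of Irf4 and 95.5% of Batf, against a median of 46.9% over all genes tested. Experiment accounted for 97.9% of the variation of Fos, the highest share among the 14177 genes, and for 96.5% of Junb (rank 3). The shares of experiment were 78.3% for Jun, 62.0% for Fosb, 54.3% for Fosl2 and 51.0% for Jund. Over all genes the median share of experiment was 15.1%, and 178 genes reached 80%. An F test for a difference between experiments, with population in the model, called 0.0353% of all genes, and 3 of those 5 genes were Fos (adjusted p = 0.00121), Junb (adjusted p = 0.00687) and Jun (adjusted p = 0.00773). The other two were Hspa1a and Gm10800, while Fosb had an adjusted p of 0.154. This test was chosen after the values were seen, and without the trend in limma it called none of the 9 genes, although 4 had an unadjusted p under 0.05 (Fos: adjusted p = 0.099). Fos kept the call without any single value (highest adjusted p = 0.0425). Junb lost it without Treg of experiment 5 (0.0564) or Tconv of 6 (0.0555), and Jun without PD1hi of 5 (0.0858), Treg of 5 (0.182) or Tconv of 6 (0.106). From first libraries alone Junb lost the call as well (0.0756). Without PD1hi of experiment 6 the F test called 934 genes and 5 of the 9 in place of 5 and 3.

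**Figure D3:**
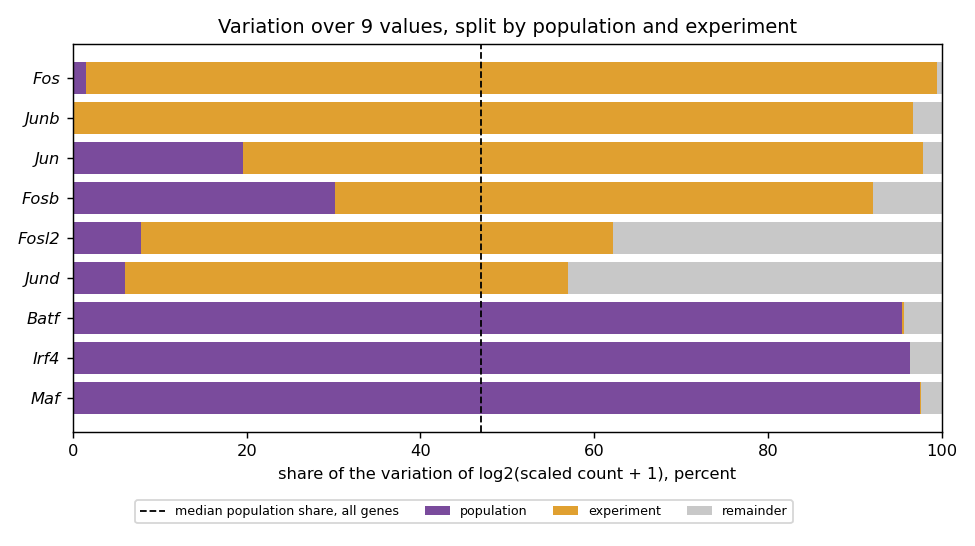
Shares (horizontal axis, percent) of the variation in log2(scaled count + 1) over 9 values that follow population, experiment or neither, for each of the 9 factors. The dashed line is the median population share of all genes. Batf, Irf4 and Maf are nearly all population, and Fos and Junb nearly all experiment.

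The experiments were not ranked alike by all of these genes. Fos averaged 16747 ± 1332 scaled counts in experiment 3 (SD over the 3 populations), 7580.3 ± 872 in experiment 5 and 4706 ± 365 in experiment 6, so experiment 3 stood 3.56-fold over experiment 6. Junb peaked in experiment 5 instead, at 3219 ± 782 against 989 ± 81.8 in experiment 3 and 508 ± 95.4 in experiment 6, and so did Jun, at 3477 ± 1130.3 against 2046 ± 501 and 964 ± 372. Fos, Fosb, Jun and Junb, whose promoters are printed above, were lowest in experiment 6 in all 3 populations, a pattern shown by 4.85% of all genes tested. In deviations from population means Fos correlated with Fosb at 0.93 and Jun with Junb at 0.93, but Fos with Junb at 0.22. The labels do not say how the experiments differed.

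The same split was looked for in 29 other immediate early and stress genes. Hspa1a, an inducible heat shock protein 70 gene, passed the F test (adjusted p = 3.5e-05): it stood at 1765, 1583 and 68.5 scaled counts in PD1hi of experiments 3, 5 and 6, 377, 330.1 and 15.8 in Treg and 666, 504 and 17.4 in Tconv. It was the only one of the 29 to pass. Over the list the median share of experiment was 18.2%, against 15.1% for all genes, and 8 of the 29, among them Ier2, Nr4a1, Klf4, Socs3 and Cd69, reached 50%, as did 11.7% of all genes. Egr1, an immediate early gene of the same receptor response, had 1.77%. Klf6, Klf4, Dnajb1, Nr4a1, Dusp1, Ppp1r15a, Hspa1b and Hspa1a, 8 of the 29, were lowest in experiment 6 in every population (all genes: 4.85%). These genes were picked out after their values were seen.

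**Figure D4:**
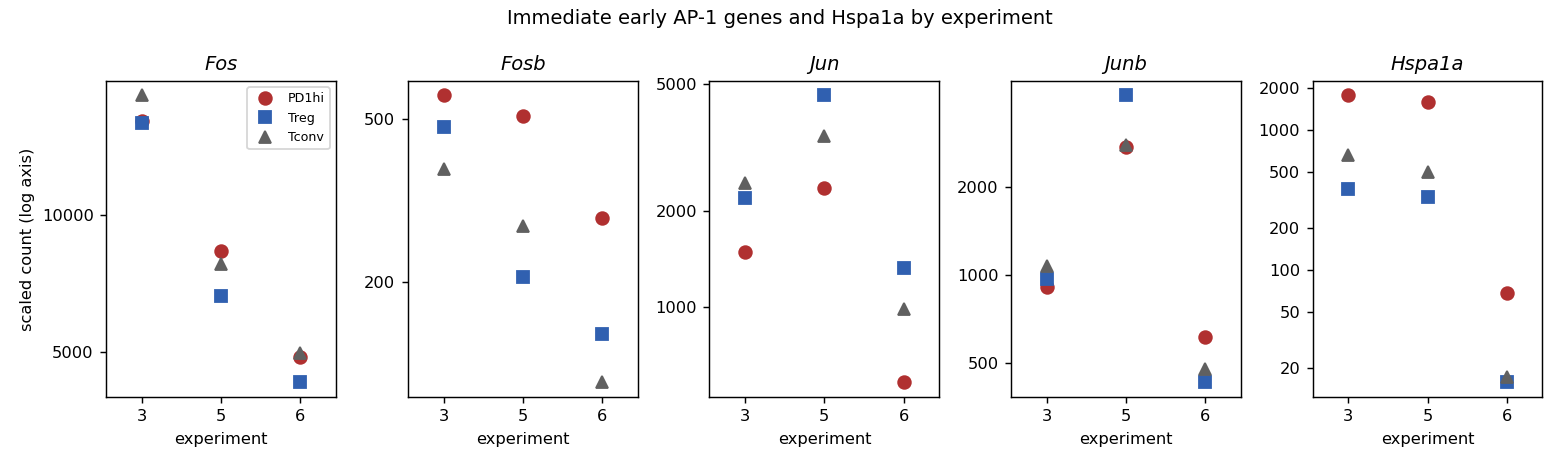
Scaled counts (log axes) of Fos, Fosb, Jun, Junb and Hspa1a in PD1hi (circles), Treg (squares) and Tconv (triangles) by experiment (horizontal axes). The Fos symbols of one experiment lie closer together than those of different experiments, Junb and Jun peak in experiment 5, and all 5 genes are lowest in experiment 6.

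Fos and Batf lie side by side on chromosome 12, with Jdp2, the gene of a bZIP repressor of AP-1, as the single protein-coding gene between them in RefSeq. Jdp2 averaged 3.72 scaled counts and was not tested, and Fos and Batf had opposite splits between experiment and population.

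Divided by exon length (GENCODE M21, per kilobase), Fos gave the highest mean level in every population (4142 ± 2429.7, 3804 ± 2618 and 4398 ± 2984 in PD1hi, Treg and Tconv, SD, n = 3), with a wide spread between experiments. In PD1hi cells Batf followed at 2352 ± 436, and in experiment 6 it exceeded Fos (2786 against 2068). Maf came next at 1329 ± 251, then Junb (619 ± 500.3), Jun (463 ± 279) and Irf4 (338 ± 68.3), which overlapped one another, and Junb also overlapped Maf. In Tconv the order after Fos was Jun (721 ± 389), Batf (662 ± 78.6) and Junb (629.9 ± 523), whose values overlapped, followed by Maf (227 ± 34.3), Jund (131 ± 45.4) and Irf4 (82.0 ± 10.7). There Junb also overlapped Maf, and Jund overlapped Irf4. Treg held 1235 ± 113 for Batf, 687 ± 27.6 for Maf and 273 ± 19.0 for Irf4. Fosb and Fosl2 were the lowest in all 3 populations, at 72.9 and 13.2 in PD1hi.

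The pathway around these factors was described with lists of genes, and the list genes named here passed limma's test with an adjusted p of at most 0.0245. Of 21 genes that carry the receptor signal to AP-1, 2 were higher and 5 lower in PD1hi than in Tconv (median log2 difference -0.054, all genes 0.00). Over all genes tested, 14.2% were higher and 11.9% lower in that comparison. Txk, a Tec kinase, was lower (-3.08 ± 0.15), as was Rasgrp1, which loads Ras (-1.28 ± 0.11). Against Treg 2 were higher and 3 lower in PD1hi (all genes: 8.16% and 8.39%), again with Txk (-1.79 ± 0.15) and Rasgrp1 (-1.05 ± 0.11) lower. Between Treg and Tconv (all genes: 8.73% higher and 5.66% lower) 1 was higher, Mapk9, a Jun kinase gene (0.75 ± 0.14), and 3 lower, Txk among them (-1.29 ± 0.15). These counts moved with single values: 4 higher and 4 lower against Tconv without PD1hi of experiment 5, and 3 lower without Treg of 5 or Tconv of 3 or 6. Against Treg 4 were higher and 4 lower without the second Treg library of experiment 3, and also from first libraries alone. Against Treg 1 was higher without PD1hi or Treg of experiment 3 or 5, and between Treg and Tconv 2 were higher and 5 lower without PD1hi of experiment 6 and 2 higher without Treg of 6, while 1 was higher and 6 lower without both doubted libraries, namely that Treg library and PD1hi of experiment 6. With libraries at equal totals the first comparison gave 3 higher and 3 lower.

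Among 21 tested genes of a list of 30 other bZIP factors, 5 were higher and 4 lower in PD1hi than in Tconv (median -0.019, all genes: 14.2% and 11.9%). Against Treg 2 were higher and 4 lower in PD1hi (median 0.060, all genes: 8.16% and 8.39%). In Treg 4 were higher and 2 lower than in Tconv (median 0.003, all genes: 8.73% and 5.66%). Nfil3, a bZIP repressor, rose by 4.73 ± 0.53 in PD1hi and 4.06 ± 0.53 in Treg over Tconv. Bach2, a repressor that competes with AP-1 at its sites, was lower in PD1hi than in Tconv: 382, 422 and 589 scaled counts in PD1hi, 1193, 761 and 1054 in Treg and 2035, 2156 and 2059 in Tconv, with -2.19 ± 0.20 between the outer groups. Bach1, its relative, was lower in PD1hi than in Treg (-1.21 ± 0.21) and Mafg, a small Maf protein, higher (1.37 ± 0.18). Nfe2l2, the oxidative stress factor, was lower in Treg than in Tconv (-1.55 ± 0.17) and Crem, a cyclic AMP responsive factor, higher (1.52 ± 0.17). Hlf was lower in PD1hi than in Tconv (-2.15 ± 0.63) and Treg (-2.77 ± 0.63), on 21 reads in the 3 PD1hi libraries, and its difference from Tconv missed the threshold without any 1 of the 3 Tconv values (adjusted p = 0.0797, 0.0521 and 0.0746 without experiment 3, 5 and 6). Against Treg 1 in place of 2 was higher without PD1hi of experiment 3 or 5 or Treg of 3 or 6. Between Treg and Tconv the count was 3 higher and 4 lower without Treg of experiment 3, 2 and 2 without Tconv of 3, and 6 and 4 without both doubted libraries.

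A list of 10 other IRF and ETS factors, which share the DNA motif of Irf4 or bind beside it, had 8 tested genes. Of these 1 was higher and 4 lower in PD1hi than in Tconv (median -0.44, all genes: 14.2% and 11.9%). Against Treg none was higher in PD1hi (none also at an unadjusted p under 0.05 in limma) and 4 were lower (median -0.63, all genes: 8.16% and 8.39%). In Treg 2 were higher and 1 lower than in Tconv (median 0.12, all genes: 8.73% and 5.66%). Irf7 (-1.04 ± 0.14) and Irf9 (-0.92 ± 0.12), both of the type I interferon response, were lower in PD1hi than in Tconv and Irf5 higher (0.99 ± 0.16). Irf8, the nearest relative of Irf4, was lower in PD1hi than in Treg (-1.11 ± 0.22) and higher in Treg than in Tconv (1.69 ± 0.22). Irf9 was also lower in PD1hi than in Treg (-0.96 ± 0.12). Over Tconv, Treg had more Irf5 (1.44 ± 0.16) and less Irf7 (-0.79 ± 0.14). The count of genes higher in PD1hi than in Tconv was 2 without Tconv of experiment 5, within experiments, and at equal totals.

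Genes known as targets of Batf, Irf4 or Maf were listed with earlier results of these data known. Their control by these factors was not tested. The list held 12 genes, of which 11 had their levels tested. In PD1hi 7 were higher and 2 lower than in Tconv (median 2.39, all genes: 14.2% and 11.9%). Against Treg 4 were higher and 5 lower in PD1hi (median -0.34, all genes: 8.16% and 8.39%). In Treg 6 were higher and 2 lower than in Tconv (median 1.78, all genes: 8.73% and 5.66%). Il21, the follicular helper cytokine, was measured at 4063, 3072 and 2754 in PD1hi, 1.40, 2.82 and 1.08 in Treg and 158, 89.7 and 65.8 in Tconv. PD1hi exceeded Tconv by 5.04 ± 0.36 and Treg by 10.25 ± 0.36, and Treg lay below Tconv (-5.21 ± 0.36), on 8 reads in 5 Treg libraries. Il10, an anti-inflammatory cytokine, was high in both PD1hi (246, 305 and 174) and Treg (354, 247 and 178) over Tconv (7.46, 28.9 and 2.57), by 4.61 ± 0.61 and 4.70 ± 0.61. Il4 was higher in PD1hi than in Treg by 6.40 ± 0.53, on 33 reads in 5 Treg libraries (mean 5.63 ± 6.10 scaled counts, SD). Ctla4, the inhibitory receptor, was higher in Treg than in Tconv by 4.23 ± 0.14. Il23r, a Th17 receptor gene, had 2 reads in the PD1hi libraries and 141 in Tconv, so that it was 41.5-fold higher in Tconv (95% counting interval 11.3 to 346, exact, covering counting error only).

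In the list of 29 immediate early and stress genes 9 were higher and 6 lower in PD1hi than in Tconv (median 0.35, all genes: 14.2% and 11.9%). Against Treg 3 were higher and 4 lower in PD1hi (median 0.16, all genes: 8.16% and 8.39%). In Treg 3 were higher and 1 lower than in Tconv (median -0.060, all genes: 8.73% and 5.66%). Within experiments the counts were 12 and 7 (all genes: 15.3% and 12.8%), 5 and 6 (9.04% and 9.15%), and 6 and 4 (9.45% and 6.09%). Egr2, a receptor-induced zinc finger factor, rose by 2.50 ± 0.18 in PD1hi over Tconv, 1.53 ± 0.18 over Treg and 0.97 ± 0.18 in Treg over Tconv, which is the order of Batf and Maf. Nr4a2, an orphan receptor gene, was 2.32 ± 0.49 higher in PD1hi than in Tconv. Gadd45b, a stress-response gene, rose by 2.09 ± 0.32 in PD1hi and 1.35 ± 0.32 in Treg over Tconv, the latter lost without Treg of experiment 5 (adjusted p = 0.0600). Ier3 was lower in Treg than in both others, with 2.41 ± 0.42 for PD1hi minus Treg and -3.08 ± 0.42 for Treg minus Tconv, and Myc was lower in PD1hi than in Treg (-1.85 ± 0.17). Between Treg and Tconv the count of lower genes was 2 without PD1hi of experiment 3 or 6 or Treg of 3, and 1 was higher without Treg of 5 and 5 without Tconv of 5. The count was 2 higher and 2 lower without the second Treg library of experiment 3, 4 and 4 without both doubted libraries, and 4 and 2 from first libraries alone.

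The genes outside the set whose levels most resembled each factor were taken from 10062 genes with a mean of at least 100, by Pearson correlation of log2 levels over the 9 values. For Batf they were Cela1 (0.993), Whsc1 (0.992) and Cxx1c (0.989), and for Maf Renbp (0.993), Plcb4 (0.992) and Ccdc17 (0.991). Irf4 was matched by C330027C09Rik (0.997), Lima1 (0.993) and Nt5e (0.988), the last of which encodes the ectonucleotidase CD73. Fos was most like Rgs2 (0.948), a G protein signalling regulator, then Ube2k (0.935) and Pla2g15 (0.925). Fosb was led by Tob2 (0.973), Jun by Cmpk2 (0.956), Junb by Tmem85 (0.979), Jund by Dctpp1 (0.951) and Fosl2 by Rttn (0.916). These coefficients are the highest of many computed over few values that share libraries, and they carry no test.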

How the data were processed

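RNA-seq was analysed from sorted PD1hi, Treg and Tconv cells of mouse spleen. The authors deposited 1 table of 18649 genes in 13 libraries. Its values are a scaled signal, which the authors made by dividing reads per gene by a factor per library, per the file's name, and to which 1 had been added, per the values. The submitters' processing notes name HTSeq 0.5.4, Picard and limma, and the builds hg19, GRCh37 and mm9 with no role. No source used here gives the aligner or the strand setting. The added 1 was subtracted, and the result is called the scaled count. Divided by the value of 1 read in its library, it gave whole reads for 100% of values (tolerance 0.001). Depth was 15971126 to 24216463 reads per library, and depth bounds the precision of low genes such as Fosl2.

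Paired libraries (1 experiment, 1 population) were averaged, which gave 9 values. The tests used limma 3.58.1 in R 4.3.3 with a variance trend on log2(scaled count + 1), for the 14177 genes whose mean scaled count reached 10, with 1 variance for the 3 populations, 2-sided, and a Benjamini-Hochberg adjusted p under 0.05 counted as called. An exact permutation test of 3 against 3 cannot go below 0.10 and was not used. On simulated data for PD1hi against Tconv (14218 genes, 200 changed), the fit recovered 29.3% of 2-fold and 97.9% of 4-fold changes, and with experiment as a block 74.7% and 100%, with 0% and 5.52% of calls false. The simulation gave all genes the same chosen scatter and the same chosen size of experiment effect. These rates follow from those choices and are not the power for the measured values. The titles name the experiment, so it pairs the samples. Deviations of samples of the same experiment correlated above 0.1 in 6 of 9 pairs (range -0.0700 to 0.298). Pairs from different experiments ranged from -0.274 to 0.125. Deviations are taken from the mean of each population, so pairs of the same and of different experiments are not independent. Values from the fit with experiment as a block are printed beside a result where they change its call.

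The members and gene lists were chosen with earlier results of these data known. All members are named. From each pathway list the 3 genes with the largest change among those called and not overlapping between groups are named in each comparison, and other names are marked as chosen after their values were seen. Some genes that this rule selects are not reported here. Promoters and neighbours came from RefSeq (GRCm38.p6), exon lengths and overlaps from GENCODE M21. Python 3.11.15, numpy 2.4.6, pandas 2.3.3, scipy 1.17.1 and matplotlib 3.10.9 were used. Alternatives covered the pseudocount, the minimum level, scaling, the block, doubted libraries and leaving out each value.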

Additional observations from a re-analysis of the deposited data

Results flagged for a closer look

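In 18 groups of 5 libraries (9 genes in Treg and in Tconv), 4 held a library whose gap to the nearest other exceeded Dixon's critical share of the group's range. Chance marks about 1 in 20 groups of independent libraries, but these are not independent: in each group 4 libraries form pairs from the same experiment and 1 is alone in its experiment. Batf stood at 2222 scaled counts in the second Treg library of experiment 3, against 1586 to 1669 in the other 4 Treg libraries. Jund stood at 597.9 in that same library, against 160.6 to 250.9. Junb stood at 4122 in the Treg library of experiment 5, against 355.9 to 1290 in the others, all from experiments 3 and 6; Junb was highest in experiment 5 in all 3 populations. Fos stood at 18284 in the Tconv library of experiment 3, against 4515 to 7984 in the others, all of which came from experiments 5 and 6.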

How the results depend on the processing

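The calls of Batf and Maf in all 3 comparisons, and of Irf4 against Tconv, held in each of 22 alternatives, with log2 differences of 1.69 to 1.96, 0.79 to 1.06 and 0.78 to 0.998 for Batf (PD1hi minus Tconv, PD1hi minus Treg, Treg minus Tconv), 2.41 to 2.69, 0.80 to 1.08 and 1.499 to 1.73 for Maf, and 1.91 to 2.20 and 1.68 to 1.84 for Irf4 against Tconv. Irf4 between PD1hi and Treg was called in none of the 22. The experiment as a replicate block raised the genes of the set called between PD1hi and Tconv from 3 to 5 and between PD1hi and Treg from 2 to 4, by Fosb and Jun, and changed no other call among the 9. Within experiments the Batf difference between Treg and Tconv missed the threshold without Tconv of experiment 3 (0.81, adjusted p = 0.0549), and the Fosb difference between PD1hi and Treg without the limma trend (adjusted p = 0.0755). The difference between experiments, a test added after seeing the data as were all its alternatives and those of single genes within experiments and in the lists, gave 8 genes after quantile normalisation, 8 from first libraries alone, 1048 with both doubted libraries left out, and 2 without the trend, and 2 to 934 when 1 value was left out. The genes of the set called were none (0) without the trend, 2 from first libraries alone and 1 to 5 when 1 value was left out. The cause was not tested.

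Uncalled differences changed sign. At equal totals they were 0.10 for Fos and 0.065 for Fosl2 (PD1hi minus Tconv) and 0.012 for Junb (PD1hi minus Treg). After quantile normalisation they were 0.19 for Fos (PD1hi minus Tconv), -0.030 for Fosl2 and -0.032 for Jund (PD1hi minus Treg) and -0.012 for Fosb (Treg minus Tconv, also within experiments). All 13 libraries with an estimated correlation gave 0.084 for Fos (PD1hi minus Tconv) and 0.19 and -0.11 for Junb (PD1hi minus Treg, Treg minus Tconv). First libraries alone gave 0.22 for Junb (PD1hi minus Treg) and -0.14 for Fosb (Treg minus Tconv, also within experiments). Without the second Treg library of experiment 3, Junb was 0.13 (PD1hi minus Treg) and -0.10 (Treg minus Tconv), Fosb -0.056 (also within experiments) and Jund -0.055 (Treg minus Tconv), and with the PD1hi library of experiment 6 left out too, the Treg minus Tconv values were the same and Fos was 0.38 (PD1hi minus Tconv), Fosl2 -0.026 and Junb 0.58 (PD1hi minus Treg). Leaving out 1 value gave, for PD1hi minus Tconv, PD1hi minus Treg and Treg minus Tconv, -0.48 to 0.48, -0.27 to 0.70 and -0.74 to 0.30 for Fos, -0.59 to 0.69, -0.80 to 0.83 and -0.80 to 0.83 for Junb, and -0.022 to 0.49, -0.18 to 0.46 and -0.21 to 0.44 for Jund. It gave -0.24 to 0.10 and -0.10 to 0.25 for Fosl2 in the first 2, and for Treg minus Tconv -0.29 to 0.65 for Jun and -0.39 to 0.47 for Fosb (-0.10 to 0.36 within experiments). Of 45 differences named from the lists, 43 held in all 18 alternatives.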
